A study of Mus musculus with 36 samples.

Results

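The peroxisome is a single-membrane organelle that shortens fatty acids too long or too branched for the mitochondrion, degrades D-amino acids and 2-hydroxy acids, and breaks down the hydrogen peroxide that these reactions release. Its matrix enzymes are made in the cytosol and carried in by peroxin (PEX) receptors, while other PEX proteins insert its membrane proteins or divide the organelle. In the kidney, peroxisomes are most abundant in the proximal tubule, and many of their genes are targets of the fatty acid-sensing nuclear receptor PPARA in rodents.

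Described here are 37 mouse genes of peroxisome assembly and metabolism, found by gene symbol among the 24883 genes listed in each of 2 expression tables of whole kidney. By role they comprised 13 genes of assembly and import, 9 enzymes of beta-oxidation, 8 genes of substrate transport and acyl-CoA handling, 3 of alpha-oxidation and branched chains, and 4 oxidases and catalase. The kidneys came from male wild-type C57BL/6J mice, which from 6 weeks of age had free access to normal chow or to a high-fat diet under 12 h of light and 12 h of dark, with a harvest label of 16 weeks. Tissue was taken at zeitgeber time (ZT, hours after lights on) 0, 4, 8, 12, 16 and 20, with 3 kidney libraries for each diet and time and 36 in all. The labels name the 3 libraries of a group as replicates with numbers between 1 and 5, and do not say more about their origin, so p-values measure the spread between these libraries. Levels are in FPKM, which divides the fragments of a gene by its transcript length and by the library total, and differences are on a log2(FPKM + 0.5) scale.

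Of the 37 genes, 36 had a mean of at least 1 FPKM over all libraries and were tested together with all 11144 genes that did. The exception was Abcd2, a transporter of very-long-chain acyl-CoA, at 0.650 ± 0.484 FPKM under chow and 0.351 ± 0.287 FPKM under the high-fat diet (SD, n = 18 each). Summed over the members, expression ranged from 3172 to 4209 FPKM in the chow libraries (median 3829) and from 3535 to 4467 FPKM in the high-fat libraries (median 3855), so the totals overlapped. The enzymes were expressed far above the assembly machinery. Of the 36 tested members 14 had a higher mean than 90% of tested genes, none of them a PEX gene. The highest were Pecr at a mean of 531.8 FPKM, Nudt19 at 511.3, Phyh at 446.4 and Cat at 334.0 FPKM, while the 13 PEX genes ranged from 5.00 FPKM (Pex26) to 37.4 FPKM (Pex19). The 37 genes lie on 18 chromosomes, with at most 4 on any one of them.

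Some libraries carried transcripts of neighbouring tissue. Cyp21a1, an adrenal steroid enzyme, was at 1346, 262, 163 and 20.2 FPKM in chow ZT0 replicate 5, chow ZT4 replicates 2 and 3 and chow ZT16 replicate 4, and at most 0.256 FPKM elsewhere. Adipocyte markers summed to 219 to 2996 FPKM under chow and 97.5 to 845 FPKM under the high-fat diet, and 8 of 9 were called lower and 1 higher. Brown adipocyte markers summed to 74.8 to 589 FPKM under chow and 77.3 to 407 FPKM under the high-fat diet, with 1 of 4 tested markers lower. Proximal tubule markers summed to 3858 to 5154 FPKM under chow (median 4649) and 4248 to 5095 FPKM under the high-fat diet (median 4598), with 0 of 9 called higher and 4 lower (Cubn, Lrp2, Slc5a2 and Slc22a7). All 9 were above 1 FPKM on average. Other markers also differed between the diets. Of 3 tested immune markers 2 were higher (Cd74 by 0.39 and Cd68 by 0.38 on the log2 scale), with sums of 183.9 to 424.9 FPKM under chow and 248.5 to 546.3 FPKM under the high-fat diet. Of 5 loop and distal tubule markers 1 was higher (Pvalb, 0.65) and 2 were lower, of 4 collecting duct markers 2 were lower, and of 4 podocyte markers 0 were called. The part of these cell types in the results was not tested. In bulk tissue, fewer cells of a type and less RNA per cell cannot be told apart. The relative depth of the libraries, estimated from the steps between low values, ranged from 0.324 to 1.39.

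Averaged over the 6 times, 6 of the 36 tested members (16.7%) were higher under the high-fat diet and 3 (8.33%) were lower, against 5.25% and 11.4% of all tested genes (limma, Benjamini-Hochberg adjusted p under 0.05). Differences of the members went both ways, with 18 above 0 and 18 below and a median log2 difference of -0.003, beside -0.03 for all tested genes. The genes that rose were Acox3, Nudt19, Phyh, Acot12, Hsd17b4 and Cat, and those that fell were Hacl1, Pecr and Dao. With the values as deposited they came from every role except assembly and import. The share of lower genes among all called genes depended on the scaling, at 68.4% as deposited, 47.9% after rescaling by median ratios, 44.4% after rescaling by upper quartiles and 46.3% once the trend over GC content was removed. The members higher and lower were then 8 and 2, 9 and 2, and 9 and 3. Over all genes, 585 were higher and 1265 lower of 11144 as deposited. In the other 3 settings these became 848 and 779 of 11131, 905 and 724 of 11137, and 1125 and 970 of 11144. In each of these 3 settings the import receptor gene Pex7 was among the higher.

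**Figure D1:**
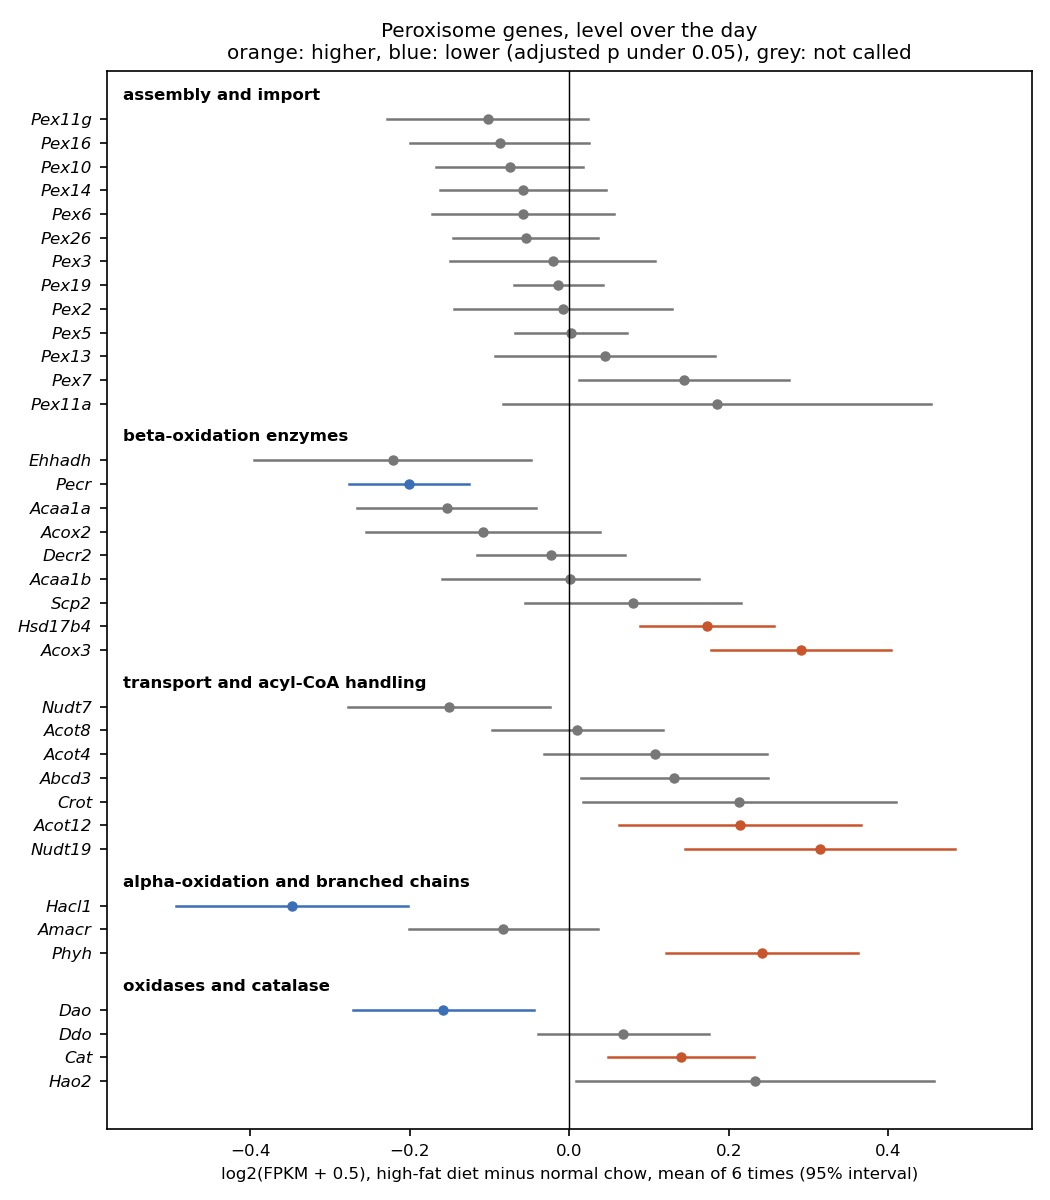
Difference between the diets for each of the 36 tested members, by role, on the log2(FPKM + 0.5) scale. Points are the mean over the 6 times of high-fat minus chow, and bars are 95% intervals from limma. Called members (orange higher, blue lower) lie between -0.35 (Hacl1) and 0.31 (Nudt19), and none is a PEX gene.

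With the values as deposited limma called 0 of the 13 assembly and import genes, beside 16.6% of all tested genes in either direction. Among the 13, 1 (Pex7) had an unadjusted limma p under 0.05. Their differences ranged from -0.10 (Pex11g) to 0.19 (Pex11a). Among the membrane protein factors, Pex3 went from 9.40 to 9.16 FPKM, Pex16 from 36.5 to 34.1 FPKM and Pex19 from 37.5 to 37.2 FPKM. Pex5 and Pex7 encode the receptors for the type 1 and type 2 targeting signals of matrix enzymes. Pex5 was at 29.1 ± 1.75 FPKM under chow and 29.2 ± 2.25 FPKM under the high-fat diet, with a difference of 0.002 and a 95% interval of -0.07 to 0.07. Pex7 was at 23.2 and 25.6 FPKM (log2 difference 0.14 ± 0.06 SE, adjusted p = 0.128), and was called higher under 5 of 12 other settings, with a lowest adjusted p of 0.00119, and without chow ZT4 replicate 4. The docking factors Pex13 and Pex14, the RING ubiquitin ligases Pex2 and Pex10, and the receptor-recycling ATPase Pex6 with its membrane anchor Pex26 lay between -0.08 (Pex10) and 0.04 (Pex13). Pex11a, which promotes elongation and division of the organelle, had the widest interval of the 13, from -0.08 to 0.45, with values of 5.45 to 23.3 FPKM under chow and 6.24 to 25.5 FPKM under the high-fat diet. Pex11a was called higher without ZT0 and ZT4 and without chow ZT4 replicate 4, and Pex16 was called lower without that library.

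Among the 9 beta-oxidation enzymes, 2 rose and 1 fell. Acox3, an acyl-CoA oxidase that takes 2-methyl-branched substrates, had values of 42.8, 63.3 and 78.8 FPKM under chow and 60.0, 76.9 and 95.3 FPKM under the high-fat diet (lowest, median and highest of 18 libraries). It rose from 62.6 ± 11.3 to 76.1 ± 10.4 FPKM, a log2 difference of 0.29 ± 0.06 (SE) or 1.22-fold (adjusted p = 0.000396), and its mean was higher at all 6 times. At ZT12 the chow libraries had 61.6, 70.9 and 68.1 FPKM and the high-fat libraries 95.3, 81.2 and 79.5 FPKM. The groups did not overlap at ZT8, ZT12, ZT16 or ZT20, and did at ZT0 and ZT4. The gene lies on chromosome 5 from 35583040 to 35615352 (GRCm38, plus strand). Hsd17b4, the D-bifunctional protein that carries out the middle steps for straight, branched and bile acid precursor chains, ranged over 64.0 to 89.6 FPKM (median 72.0) with chow and 69.9 to 104.3 FPKM (median 81.1) with the high-fat diet. It rose from 74.4 ± 7.67 to 84.0 ± 10.1 FPKM (0.17 ± 0.04, adjusted p = 0.00372). Its mean was higher at 5 of 6 times, ZT4 being the exception, and the groups stood apart at ZT8, ZT12 and ZT20.

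Pecr, a reductase of trans-2-enoyl-CoA and the most abundant member, ranged over 504.7 to 682.2 FPKM (median 562.9) with chow and 422.4 to 558.5 FPKM (median 494.3) with the high-fat diet. It fell from 568.9 ± 42.3 to 494.8 ± 34.4 FPKM (-0.20 ± 0.04, adjusted p = 0.00024). Its mean was lower at all 6 times. At ZT0 the chow libraries had 682.2, 614.1 and 515.0 FPKM and the high-fat libraries 466.6, 507.0 and 493.5 FPKM. The groups did not overlap there, nor at ZT12, ZT16 and ZT20. The gene lies on chromosome 1 from 72259167 to 72284314 (minus strand).

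The remaining 6 beta-oxidation enzymes did not pass the test. Acaa1a, a 3-ketoacyl-CoA thiolase, was at 141.7 and 126.5 FPKM (-0.15 ± 0.05, adjusted p = 0.0521), and Ehhadh, the L-bifunctional protein, at 134.9 and 116.3 FPKM (-0.22 ± 0.08, adjusted p = 0.0731). Both had lower means at all 6 times. Acaa1b, a close copy of Acaa1a with which reads may be shared, was at 235.9 and 235.6 FPKM. Acox2, an oxidase of bile acid precursors, was at 29.98 and 28.2 FPKM, Decr2, a 2,4-dienoyl-CoA reductase, at 31.2 and 30.6 FPKM, and Scp2, which encodes a thiolase and a lipid carrier, at 251.1 and 264.4 FPKM.

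**Figure D2:**
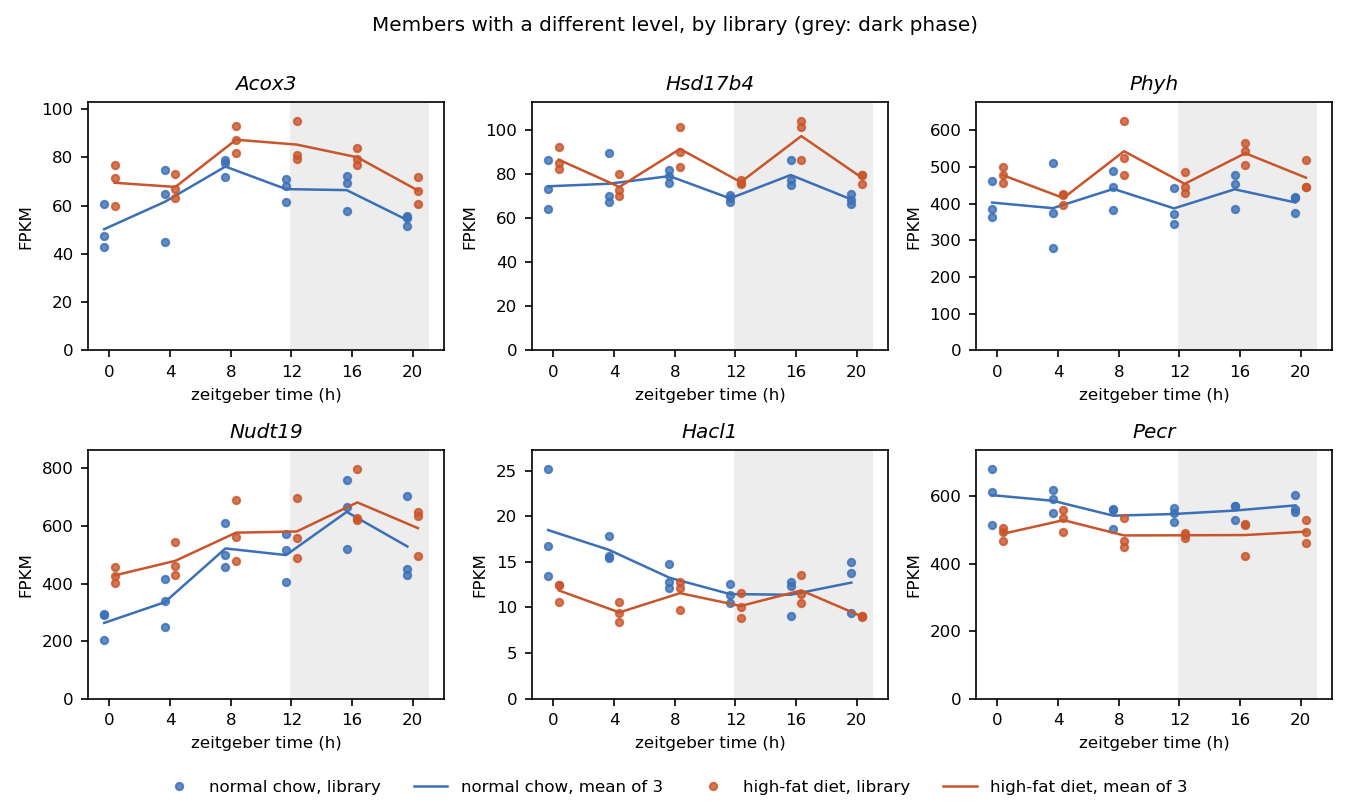
FPKM of 6 called members in each of the 36 libraries by zeitgeber time, with chow in blue and the high-fat diet in orange, lines through the means of 3 libraries and the dark phase in grey. The orange lines of Acox3, Phyh and Nudt19 lie above the blue ones at all 6 times, that of Pecr lies below at all 6, and the diets differ most for Hacl1 and Nudt19 at ZT0 and ZT4.

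Phytanic acid, a branched fatty acid from the diet, loses 1 carbon by alpha-oxidation, in which Phyh hydroxylates phytanoyl-CoA and Hacl1 then cleaves the product. These 2 genes moved in opposite directions. Phyh ranged over 278.2 to 510.4 FPKM (median 400.8) with chow and 395.4 to 626.1 FPKM (median 477.0) with the high-fat diet. It rose from 409.9 ± 58.3 to 482.8 ± 57.8 FPKM (0.24 ± 0.06, adjusted p = 0.00468), with a higher mean at all 6 times. At ZT16 chow had 477.8, 453.3 and 385.8 FPKM and the high-fat diet 542.0, 564.7 and 505.1 FPKM. The groups stood apart at ZT16 and ZT20 and overlapped at the other times. Phyh lies on chromosome 2 from 4919019 to 4938730 (plus strand).

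Hacl1 ranged over 9.04 to 25.2 FPKM (median 13.1) with chow and 8.37 to 13.6 FPKM (median 10.5) with the high-fat diet. It fell from 13.9 ± 3.69 to 10.7 ± 1.60 FPKM (-0.35 ± 0.07, adjusted p = 0.000856), with a lower mean at 5 of 6 times. At ZT4 the chow libraries had 15.5, 17.9 and 15.6 FPKM and the high-fat libraries 10.6, 9.43 and 8.37 FPKM. The groups did not overlap at ZT4, at ZT0 or at ZT20. At ZT16 the order of the means was reversed, at 11.4 under chow and 11.9 FPKM under the high-fat diet. Without ZT0 and ZT4 the difference of Hacl1 over the other 4 times was -0.19 (adjusted p = 0.117). Hacl1 lies on chromosome 14 from 31598730 to 31641286 (minus strand). The remaining gene of the group, the racemase Amacr that interconverts the stereoisomers of branched acyl-CoA, was at 132.4 and 124.2 FPKM (adjusted p = 0.356).

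Among the 7 tested genes of transport and acyl-CoA handling, 2 rose and none fell. Nudt19, a hydrolase of coenzyme A and its thioesters, ranged over 203.2 to 759.2 FPKM (median 454.1) with chow and 400.9 to 798.9 FPKM (median 550.8) with the high-fat diet. It rose from 466.1 ± 157.3 to 556.5 ± 111.3 FPKM (0.31 ± 0.08, adjusted p = 0.00862), with a higher mean at all 6 times. The gap was widest at ZT0, where chow had 292.2, 203.2 and 293.6 FPKM and the high-fat diet 400.9, 458.8 and 424.7 FPKM. The groups stood apart at ZT0 and ZT4 and overlapped at the 4 later times. Without ZT0 and ZT4 the difference of Nudt19 was 0.16 (adjusted p = 0.313). Nudt19 lies on chromosome 7 from 35547185 to 35556304 (minus strand). Its relative Nudt7, also a coenzyme A hydrolase, was at 18.8 and 16.8 FPKM (-0.15 ± 0.06, adjusted p = 0.0955).

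Acot12, an acetyl-CoA thioesterase, ranged over 24.5 to 58.6 FPKM (median 38.1) with chow and 33.1 to 53.7 FPKM (median 41.1) with the high-fat diet. It rose from 37.4 ± 9.31 to 42.6 ± 5.88 FPKM (0.21 ± 0.07, adjusted p = 0.0468), and the call was kept in 10 of 36 fits that left out 1 library. The gap was widest at ZT0, at 0.61 on the log2 scale. Without ZT0 and ZT4 the difference of Acot12 was 0.16 (adjusted p = 0.145). The thioesterases Acot4 and Acot8 were at 12.2 and 13.1 FPKM and at 31.5 and 31.6 FPKM, and Acot4 has close copies with which reads may be shared. Abcd3, the main transporter of long and branched acyl-CoA in the peroxisomal membrane, was at 82.0 and 89.7 FPKM (0.13 ± 0.06, adjusted p = 0.117). Crot, which loads shortened chains onto carnitine for export, was at 71.9 and 82.1 FPKM (0.21 ± 0.10, adjusted p = 0.13).

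Of the oxidases and catalase, 1 rose and 1 fell. Cat, which breaks down hydrogen peroxide, ranged over 229.0 to 371.2 FPKM (median 315.3) with chow and 288.4 to 405.0 FPKM (median 346.3) with the high-fat diet. It rose from 318.1 ± 37.5 to 349.9 ± 35.1 FPKM (0.14 ± 0.04, adjusted p = 0.0308), with a higher mean at all 6 times, and the groups stood apart at ZT16 and ZT20. Dao, which oxidises neutral D-amino acids and releases hydrogen peroxide, ranged over 195.0 to 347.6 FPKM (median 279.3) with chow and 193.3 to 311.4 FPKM (median 254.5) with the high-fat diet. It fell from 284.7 ± 36.5 to 254.2 ± 26.1 FPKM (-0.16 ± 0.06, adjusted p = 0.0493), a call kept in 8 of 36 fits that left out 1 library. Hao2, an oxidase of long-chain 2-hydroxy acids, was at 74.0 and 88.0 FPKM (0.23 ± 0.11, adjusted p = 0.151), and Ddo, the D-aspartate oxidase, at 11.3 and 11.9 FPKM (adjusted p = 0.417).

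Acox3, Phyh and Pecr were called under all 12 other processing settings tried and in all 36 fits without 1 library. With an adipocyte score as covariate, Acox3, Nudt19 and Phyh remained higher and Hacl1 and Pecr lower, while Hsd17b4 (0.14, adjusted p = 0.0922), Acot12 (0.17), Cat (0.14) and Dao (-0.15) were not called. Without the 4 chow libraries with adrenal transcripts, Acot12 (0.11), Cat (0.08) and Dao (-0.10) were not called, Phyh (0.16) and Hsd17b4 (0.11) were smaller but called, and Ehhadh became lower. Without chow ZT4 replicate 4 the members higher and lower were 10 and 5, beside 988 and 1763 of all 11122 genes then tested.

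**Figure D3:**
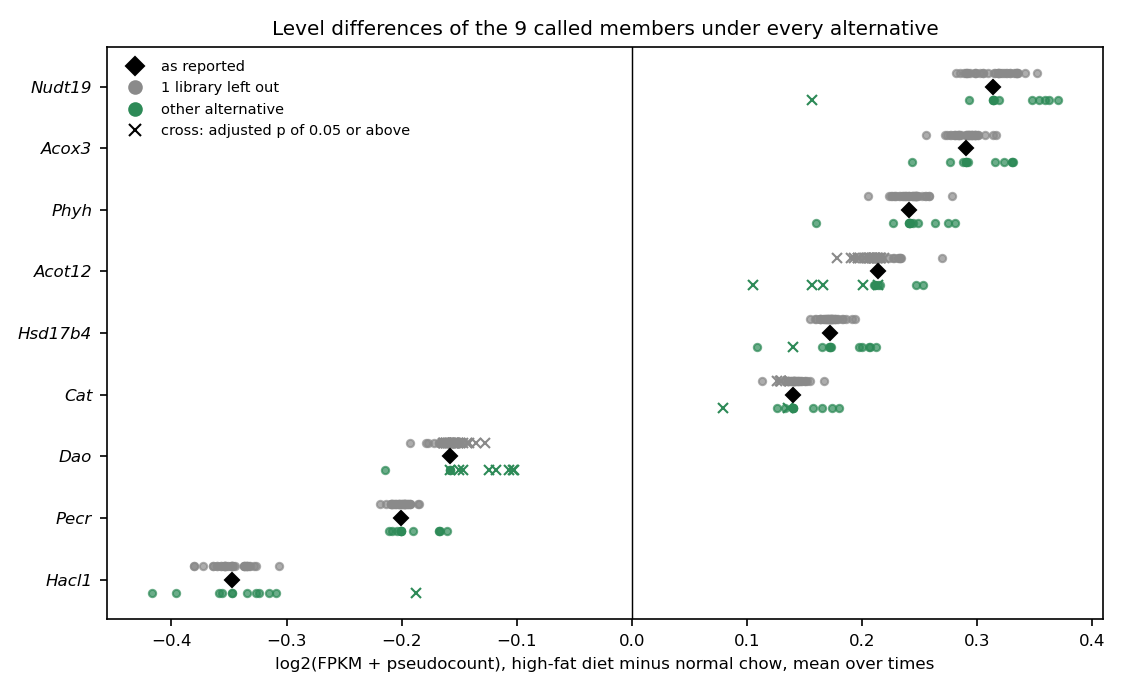
Difference between the diets, on the log2 scale, of the 9 called members as reported (black diamonds), with 1 library left out (grey) and under the other 12 settings (green), crosses being fits with an adjusted p of 0.05 or above. Acox3, Phyh and Pecr have no cross, Dao has the most, and every value keeps its sign.

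Single times held few calls. Hacl1 at ZT4 was the 1 member called (-0.76 ± 0.17, adjusted p = 0.0224), where 1.61% of all tested genes were called. At ZT0, ZT8, ZT12, ZT16 and ZT20 limma called 0 members, beside 1.59%, 0.332%, 0.368%, 0.556% and 0.260% of all tested genes. At an unadjusted p under 0.05, 8 members at ZT0, 4 at ZT4, 1 at ZT8, 2 at ZT12, 4 at ZT16 and 4 at ZT20 passed, beside 14.1%, 17.3%, 9.57%, 7.12%, 7.32% and 6.45% of all tested genes. At ZT0 the high-fat group lay wholly above the chow group for 6 members (Pex2, Pex3, Pex7, Abcd3, Acot12 and Nudt19) and wholly below for 5 (Pex6, Pex10, Hacl1, Dao and Pecr), beside 6.76% and 12.8% of all tested genes. At ZT20 it lay above for 6 (Pex7, Acox3, Hsd17b4, Acot4, Phyh and Cat) and below for 4 (Ehhadh, Hacl1, Dao and Pecr), beside 6.08% and 10.3%. At ZT4 only Nudt19 of the tested members stood above and only Hacl1 below, beside 2.34% and 9.43% of all tested genes. The untested Abcd2 also lay below there, at 0.456, 1.56 and 1.77 FPKM under chow and 0.216, 0.0883 and 0.394 FPKM under the high-fat diet. These values are low. In the same libraries the adipocyte marker Adipoq was at 61.3, 113.9 and 74.5 FPKM under chow. Under the high-fat diet it was at 15.9, 3.74 and 30.7 FPKM. The part of adipocytes in the Abcd2 values was not tested.

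At ZT8, 2 members stood above (Acox3 and Hsd17b4) and 2 below (Dao and Nudt7), beside 7.83% and 8.16% of all tested genes. At ZT12 the same 2 stood above and 3 below (Pecr, Amacr and Nudt7), beside 5.43% and 8.61%. At ZT16, 3 stood above (Acox3, Phyh and Cat) and 2 below (Acox2 and Pecr), beside 7.12% and 8.06%.

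A 24 h rhythm was tested within each diet with a cosine and a sine term. Under chow 5 of 36 members (13.9%) were rhythmic, beside 7.77% of all tested genes, and under the high-fat diet 5 (13.9%), beside 7.30%. Pex19, Acox3, Decr2 and Nudt19 passed under both diets, beside 3.49% of all tested genes. Hacl1 passed under chow alone and Acox2 under the high-fat diet alone. The difference in rhythm between the diets was called for 0 members (limma), beside 0.0269% of all tested genes. At an unadjusted limma p under 0.05 it was found for Hacl1 and Acox2, beside 3.17% of all tested genes. Their unadjusted values were 0.00903 and 0.0459, and their adjusted p was 1.

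Peaks of the rhythmic members fell late in the light phase or early in the dark phase, apart from Hacl1 and Acox2. Pex19, the cytosolic chaperone of peroxisomal membrane proteins, had 40.2, 40.0 and 41.9 FPKM at ZT8 and 33.7, 34.6 and 33.0 FPKM at ZT20 under chow. Under the high-fat diet it had 43.1, 40.8 and 41.9 FPKM at ZT8 and 32.6, 34.4 and 32.3 FPKM at ZT20. The ZT8 and ZT20 libraries did not overlap under either diet. The fitted peak-to-trough change under chow was 0.28 ± 0.06 (log2, SE) with a peak at 9.48 h (adjusted p = 0.0188). Under the high-fat diet it was 0.30 ± 0.06 with a peak at 9.06 h (adjusted p = 0.00677). The chow call was kept under 10 of 14 other settings and the high-fat call under 13 of 14. Both were kept in all 36 fits without 1 library. Pex19 was the only PEX gene called for rhythm in either diet. That is 1 of 13 (7.69%) in each diet, near the 7.77% and 7.30% of all tested genes under chow and the high-fat diet.

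Decr2 had 33.1, 38.4 and 38.7 FPKM at ZT8 and 27.0, 25.5 and 29.4 FPKM at ZT20 under chow. Under the high-fat diet it had 35.9, 38.2 and 30.2 FPKM at ZT8 and 24.7, 27.9 and 26.1 FPKM at ZT20. Every ZT8 library lay above every ZT20 library of its diet. The change was 0.49 ± 0.09 with a peak at 10.5 h under chow (adjusted p = 0.00783) and 0.36 ± 0.08 with a peak at 10.4 h under the high-fat diet (adjusted p = 0.0278). Acox3 peaked at 10.5 h under chow (0.53 ± 0.13, adjusted p = 0.0375) and 11.2 h under the high-fat diet (0.42 ± 0.09, adjusted p = 0.0131). Its rhythm under chow was called in 25 of 36 fits without 1 library.

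Nudt19 had the largest fitted change of the called members under chow, 1.09 ± 0.22 or 2.13-fold, with a peak at 14.0 h (adjusted p = 0.0129). Under chow it had 292.2, 203.2 and 293.6 FPKM at ZT0 and 666.7, 759.2 and 521.0 FPKM at ZT16. Under the high-fat diet it had 400.9, 458.8 and 424.7 FPKM at ZT0 and 627.7, 798.9 and 619.2 FPKM at ZT16, a change of 0.54 ± 0.13 or 1.46-fold with a peak at 14.4 h (adjusted p = 0.0435). The 2 times did not overlap under either diet, and the difference in rhythm had an unadjusted p of 0.134. Without the 4 libraries with adrenal transcripts the change of Nudt19 under chow was 0.89 (adjusted p = 0.158), and without ZT0 and ZT4 it was 0.32 (adjusted p = 0.904). The call under the high-fat diet was kept in 24 of 36 fits without 1 library.

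Acox2 showed the strongest rhythm under the high-fat diet, 0.85 ± 0.12, with a peak at 6.56 h (adjusted p = 0.00078). It had 38.4, 31.4 and 36.2 FPKM at ZT4 and 41.4, 31.9 and 35.3 FPKM at ZT8. At ZT16 it had 19.5, 21.9 and 23.9 FPKM and at ZT20 20.1, 19.7 and 23.4 FPKM, all below every ZT4 and ZT8 library. Under chow it ranged from 18.8 to 38.2 FPKM with a change of 0.34 ± 0.15 (adjusted p = 0.323). Among the members, the rhythm of Acox2 under the high-fat diet was called in all 14 other settings and all 36 fits without 1 library.

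Hacl1 peaked at 2.10 h under chow with a change of 0.66 ± 0.16 or 1.58-fold (adjusted p = 0.039). It had 16.8, 25.2 and 13.4 FPKM at ZT0 and 12.5, 10.5 and 11.4 FPKM at ZT12 under chow, without overlap. Under the high-fat diet it had 12.5, 10.6 and 12.4 FPKM at ZT0 and 8.79, 11.6 and 10.1 FPKM at ZT12, which overlapped, and the change was 0.07 ± 0.14 (adjusted p = 0.946). The chow call of Hacl1 was kept under 5 of 14 other settings and in 26 of 36 fits without 1 library.

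**Figure D4:**
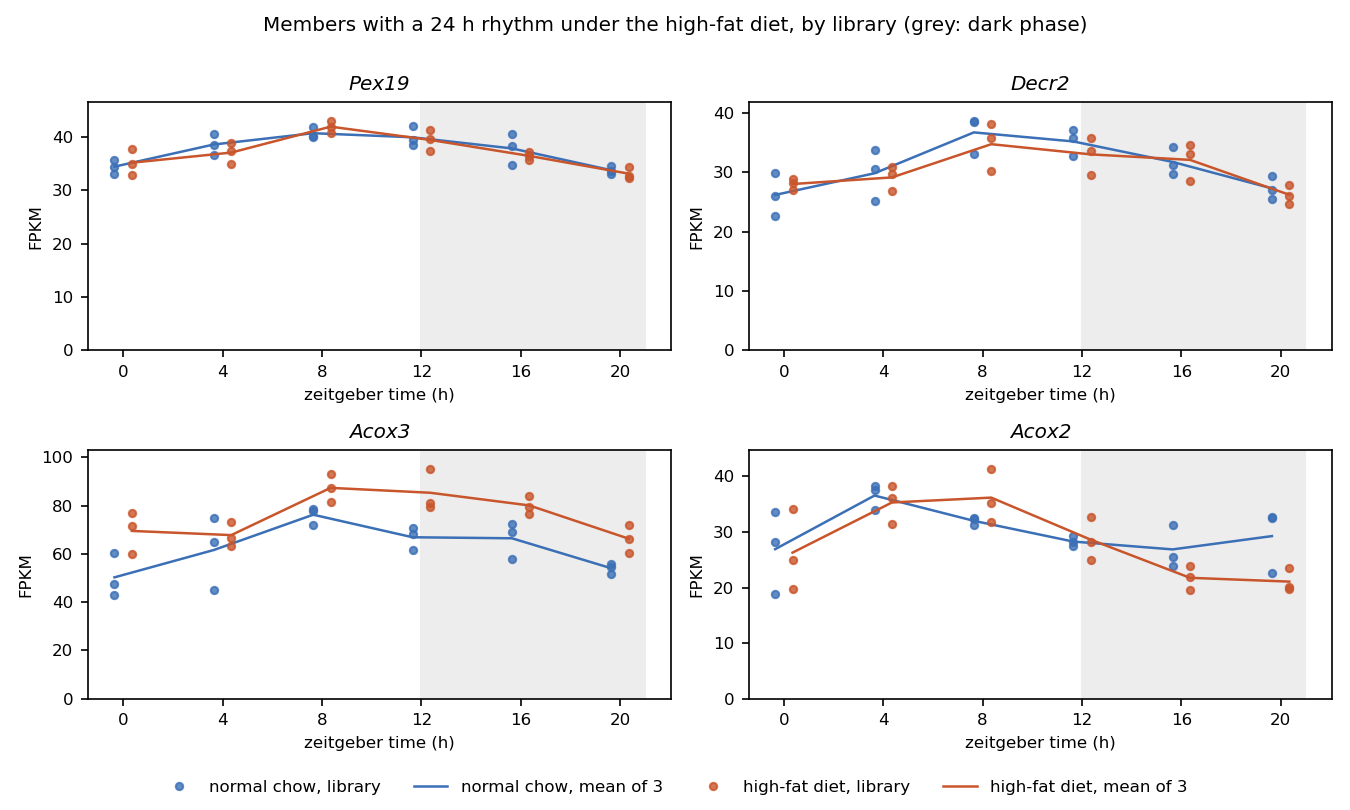
FPKM of 4 members with a 24 h rhythm under the high-fat diet in each of the 36 libraries by zeitgeber time, with chow in blue, the high-fat diet in orange, lines through the means of 3 libraries and the dark phase in grey. Pex19 and Decr2 are highest at ZT8 on average under both diets, and Acox2 under the high-fat diet is highest at ZT4 and ZT8 and lowest at ZT16 and ZT20.

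A second pattern in time, a rise and fall between consecutive times, was seen in the values before its contrast was fitted. The contrast was chosen from these same values, so its p-values and calls describe the pattern and cannot test it. Under the high-fat diet 11 of 36 members (30.6%) were higher at ZT0, ZT8 and ZT16 than at ZT4, ZT12 and ZT20, and 0 were lower, beside 16.4% and 2.55% of all tested genes (limma). They were Pex11a, Hao2, Ehhadh, Ddo, Pex2, Scp2, Hacl1, Hsd17b4, Abcd3, Pex7 and Cat. Pex11a was at 14.5 ± 4.87 FPKM at the first 3 times and 8.54 ± 1.83 FPKM at the others (SD, n = 9 each, 0.69 ± 0.19), and Ddo at 13.4 ± 1.19 and 10.3 ± 1.21 FPKM (0.36 ± 0.07, adjusted p = 0.0164). Under chow 0 members were called, beside 0.0359% of all tested genes higher and 0.00897% lower, although Ddo was at 12.5 and 10.1 FPKM (unadjusted p = 0.0005). Whether the diets differ in this pattern was not tested.

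The trend of each library over the GC content of transcripts moved with the same times under the high-fat diet, with mean slopes in log2 per 10 points of GC of -0.05, -0.17 and -0.13 at ZT0, ZT8 and ZT16 and 0.11, 0.06 and -0.0001 at ZT4, ZT12 and ZT20. With that trend removed, 2 members were called under the high-fat diet (Ddo and Pex11a), beside 4.78% of all tested genes, and 2 under chow (Ddo and Pex16), beside 0.126%. The count under the high-fat diet was 0 without high-fat ZT12 replicate 5 or ZT16 replicate 1, beside 0% and 0.242% of all tested genes. It was 17 without chow ZT4 replicate 4, beside 35.7% of all tested genes. Without that chow library 10 members were called under chow, beside 18.2%.

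**Figure D5:**
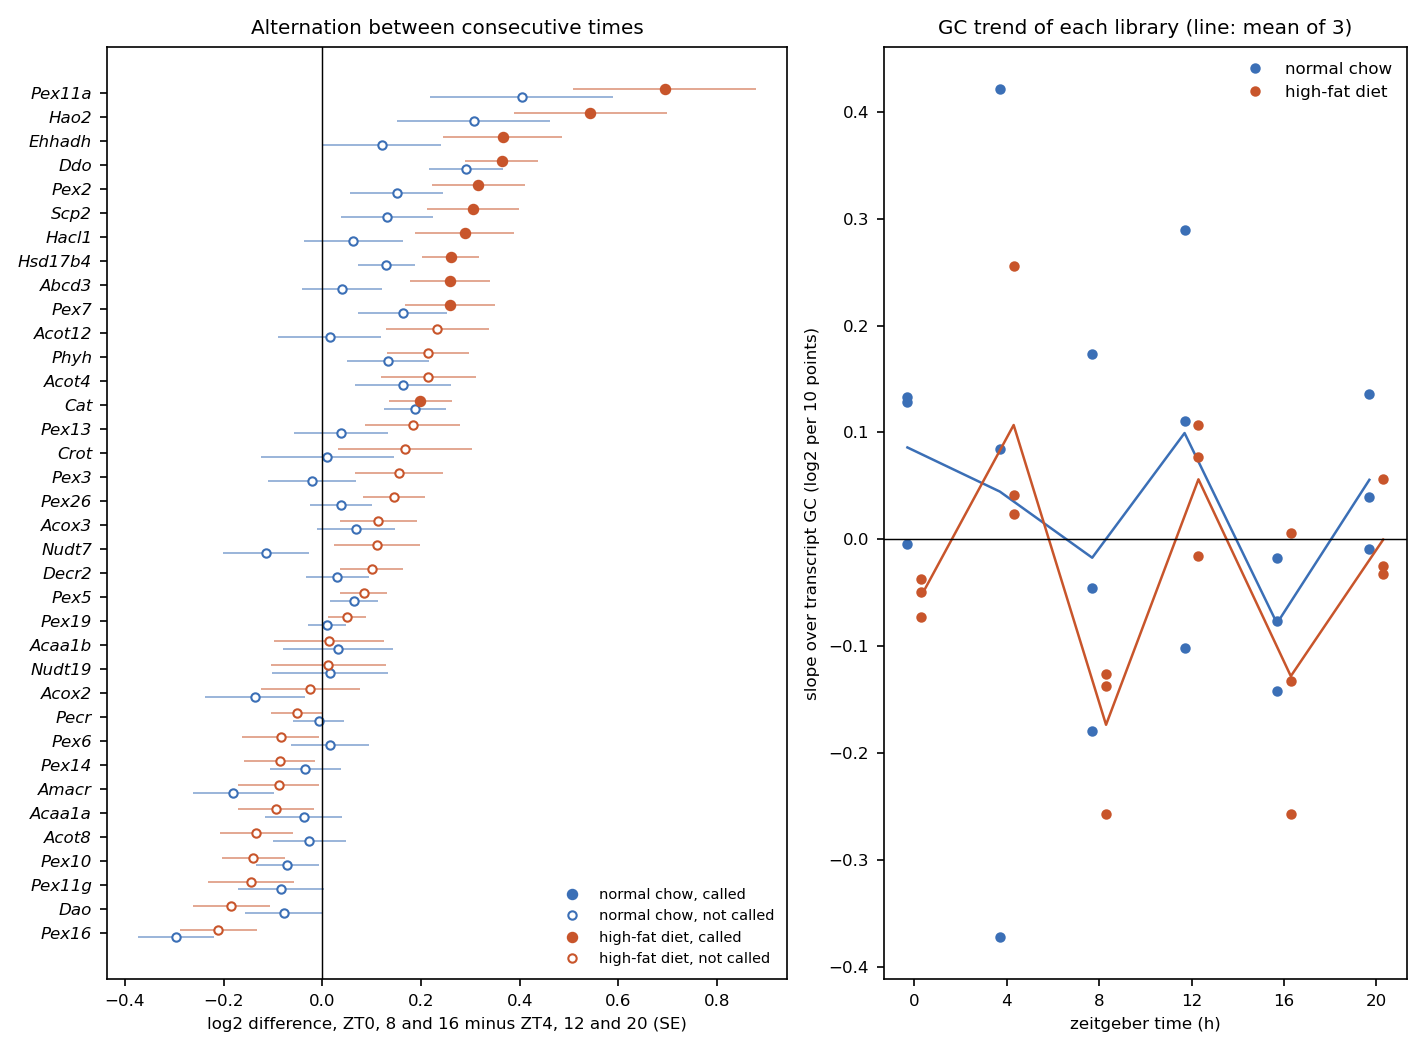
Left, the log2 difference of each tested member between ZT0, 8 and 16 and ZT4, 12 and 20 by diet, with standard errors, filled where called. Right, the slope of each library over transcript GC content by time, with lines through the means of 3 libraries. Called members are those of the high-fat diet from 0.20 (Cat) to 0.69 (Pex11a), and the high-fat slopes fall at the times where these members are high.

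Promoters were searched for 3 motif types tied to nuclear receptors and the clock, in RefSeq windows (GRCm38.p6) from 250 bases before to 50 bases after each start site. There were 40 windows of 32 members among 32851, and Amacr, Pex19, Pex2, Hsd17b4 and Abcd2 had no window. The direct repeat bound by PPAR and RXR pairs (direct repeat 1, in 2 spellings, both strands) was in 0 member windows and 0.0517% of all windows. The D-box (TTATGTAA or TTACGTAA, both strands) was in 0 and 1.06%. Both motifs were too rare over all windows for their absence from 40 windows to set the members apart. Other spellings and sites outside the windows were not searched, so their presence is not known here. The E-box CACGTG, which reads the same on both strands, was in 3 member windows (7.5%), those of Acot4, Dao and Ddo, and 7.15% of all windows. Of these genes only Dao was called for level, and neither diet gave it a rhythm (adjusted p = 0.67 and 0.877). Its window, chr5:114004558-114004857 on the plus strand, is shown with the E-box, which begins 85 bases before the start site, in capitals.
Dao: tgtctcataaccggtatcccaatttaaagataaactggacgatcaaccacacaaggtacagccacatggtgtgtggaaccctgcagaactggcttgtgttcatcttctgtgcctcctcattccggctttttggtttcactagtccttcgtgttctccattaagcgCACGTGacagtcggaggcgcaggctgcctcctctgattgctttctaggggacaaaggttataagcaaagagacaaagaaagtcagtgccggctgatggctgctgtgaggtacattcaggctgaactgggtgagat

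Other peroxisomal genes and PPARA targets formed a list of 53 separate from the members, of which 45 were tested. Of the 45, 7 were higher (15.6%) and 6 lower (13.3%), beside 5.25% and 11.4% of all tested genes. The median log2 difference was 0.05, beside -0.03 for all tested genes. Under chow 7 (15.6%) were rhythmic and under the high-fat diet 4 (8.89%), beside 7.77% and 7.30%. In both diets 2 were rhythmic, beside 3.49% of all tested genes. Mvk and Pmvk, kinases of the mevalonate pathway, each fell by 0.46 on the log2 scale, from 10.9 ± 2.39 to 7.74 ± 1.42 FPKM and from 19.4 ± 4.16 to 13.7 ± 1.65 FPKM (adjusted p = 0.000106 and 3.99e-05). Vnn1, a pantetheinase, was at 28.3 FPKM under chow and 36.4 FPKM with the high-fat diet (0.37 ± 0.06, adjusted p = 4.48e-05). The enoyl-CoA isomerases Eci3 and Ech1 rose from 228.3 to 277.5 FPKM (0.29 ± 0.05) and from 539.6 to 633.8 FPKM (0.24 ± 0.05). The membrane protein Pxmp4 rose from 57.8 to 68.0 FPKM (0.24 ± 0.04).

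Of the regulators, Ppara rose from 8.24 ± 1.95 to 10.2 ± 2.73 FPKM (0.28 ± 0.07, adjusted p = 0.00775). Its rhythm had adjusted p = 0.0755 under chow and 0.0362 under the high-fat diet, with fitted peaks at 9.90 and 9.82 h, and the adjusted p of the difference in rhythm was 1. Ppard, a related receptor, fell by 0.44 ± 0.08 (adjusted p = 0.00039) and was rhythmic under both diets, with peaks at 22.6 and 21.3 h. The partner receptor Rxra (0.04, adjusted p = 0.504), the coactivator Ppargc1a (0.05, adjusted p = 0.786) and Pparg (-0.42, adjusted p = 0.113) were not called.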

How the data were processed

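RNA of whole kidney was sequenced in 36 libraries, 3 for each of 2 diets and 6 times. Per the labels' protocols, TRIzol was used for extraction and the TruSeq RNA v2 kit for the libraries. The authors deposited FPKM values per gene, 1 table per diet. The submitters' processing notes name CASAVA 1.8.2, Bowtie, Cuffnorm and mm10. No version is stated there for Bowtie or Cuffnorm. Whether a single Cuffnorm run produced the tables of both diets is not given in the sources used here, so run and diet cannot be told apart.

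Samples were grouped by the diet and time in their titles. The 817 rows with repeated symbols were left out. Values were tested as log2(FPKM + 0.5), which understates the change of low genes, for genes with a mean of at least 1 FPKM, in R 4.3.3 with limma 3.58.1, its variance prior following mean expression. The level over the day is the mean of 6 high-fat minus 6 chow group means in a fit of all 36 libraries. Rhythms are F tests of 24 h cosine and sine terms within a diet, and the difference in rhythm is the F test of their interaction with diet. P-values were adjusted by Benjamini-Hochberg over all genes tested, with a threshold of 0.05. The fits were tested on simulated data.

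Absolute depth is unknown, since FPKM values hold no totals. Relative depth came from 2091 genes, of whose low values 94.8% were within 0.1 of a whole multiple of 1 read. No 2 libraries were identical. Positions are from GENCODE M21 (GRCm38) and promoters from RefSeq. Protein sequences were not analysed here.

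Members called by any of these tests are given with values by group or library, and the others by their diet means. Other genes come from a separate list, up to 6 by p, and 5 regulators. Members and lists were chosen with earlier results of these data known. Alternatives were pseudocounts of 0.1 and 1, other filters, median ratio and upper quartile rescaling, a replicate block, an adipocyte covariate, removal of the GC trend, time as a factor, a rhythm fit over all 36 libraries, leaving out the 4 libraries with adrenal transcripts, ZT0 and ZT4, or each library in turn. The contrast of alternate times, the block together with the GC trend and, for rhythms, leaving out ZT0 and ZT4 were added after the data were seen.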

Additional observations from a re-analysis of the deposited data

How the results depend on the processing

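None of the 9 called level differences over the day changed sign under any alternative, and 3 of 9 level calls, 0 of 5 rhythm calls under chow and 1 of 5 under the high-fat diet held under all of them. As counts of members, the 6 higher over the day became 3 with the adipocyte covariate, while the 585 higher of all 11144 genes became 315. The 5 rhythmic under chow became 3 without a filter, 2 without the libraries with adrenal transcripts, 8 with the GC trend removed, 1 with time as a factor and 1 without ZT0 and ZT4. The 5 rhythmic under the high-fat diet became 10 with the GC trend removed, 19 with time as a factor and 3 without ZT0 and ZT4. Over all genes the 813 rhythmic under that diet became 1214, 3166 and 259 in these settings. The 866 rhythmic under chow became 819 without a filter and 515 of 11112 without the libraries with adrenal transcripts. They became 1298 with the GC trend removed, 375 with time as a factor and 270 without ZT0 and ZT4. For calls at ZT0 and ZT4, the shares of all tested genes under the alternatives are not given here. The member counts at these times therefore cannot set the members apart from other genes. At ZT4 without the adrenal libraries, the count also rests on a single chow library, so nothing is concluded from it. The 0 called at ZT0 became 3 with median ratio and with upper quartile rescaling, 4 without the adrenal libraries, 4 with the GC trend removed and 3 with that and the block. The 1 called at ZT4 became 0 with either rescaling and 18 without the adrenal libraries, where chow ZT4 holds only replicate 4, assumed to vary like the other groups. The 11 alternating under the high-fat diet became 4 without a filter, 7 and 6 with median ratio and upper quartile rescaling, 17 without the adrenal libraries, 2 with the GC trend removed and 0 with that and the block. The 0 alternating under chow became 2 with the GC trend removed, beside 0.126% of all tested genes. Under the high-fat diet the share of all tested genes alternating moved as well. It went from 19% to 4.93% without a filter, and to 11.2% and 12.3% with median ratio and upper quartile rescaling. It was 4.78% with the GC trend removed and 0.00897% with that and the block, and it rose without the adrenal libraries. The cause was not tested. Leaving out 1 library gave 4 to 10 members higher and 2 to 5 lower, beside 503 to 988 and 1046 to 1763 of all genes. It gave 3 to 6 members rhythmic under chow and 3 to 6 under the high-fat diet, beside 603 to 1146 and 606 to 814 of all genes. Alternating were 0 to 10 members under chow and 0 to 17 under the high-fat diet, beside 0.0179% to 18.2% and 0% to 35.7% of all tested genes. At ZT0 it gave 0 to 3 members and at ZT4 0 to 5. The 5 at ZT4 were without chow ZT4 replicate 2, and ZT4 had 0 without chow ZT4 replicate 3 or high-fat ZT4 replicate 4 or 5.

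The replicate numbers are not said to mark a shared animal or batch, and 6 of 12 same-numbered pairs of the diets deviated together (r over 0.1, range -0.18 to 0.26), with 5 of 12 chow libraries correlating best with their own number. With the replicate block 5 members were higher and 3 lower, beside 531 and 1163 of all 11144 genes. Rhythmic were 4 members under chow and 5 under the high-fat diet, beside 688 and 446 of all genes. A different rhythm was called for 0 members. Under the high-fat diet 2 members alternated (357 genes in all, and 1 with the GC trend also removed). Acot12 (adjusted p = 0.0845) and Dao (0.0813) then lost their level calls, Hacl1 its rhythm under chow (0.0832) and Acox3 its rhythm under the high-fat diet (0.0539), while Ehhadh (lower) and Crot (rhythmic under the high-fat diet) were called. Absolute depth is unknown, so no counting error can be given.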
